A study of Mus musculus with 6 samples.

Results

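Liver secretory genes are 37 genes that the hepatocyte uses to supply the blood plasma: carriers such as albumin, apolipoproteins, protease inhibitors, clotting factors and a few liver enzymes. They were taken as a list of names, chosen with some earlier results of these data known. A member was measured where a probe set was annotated to that gene alone. Of the 37 genes, 34 were measured among the 18193 genes of the arrays. Serpina1a and Trf were found only on probe sets shared with another gene, C3 had no listed probe set, and these members are not analysed here. Where a gene had several probe sets, the one with the highest mean over the 6 arrays was used.

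The samples were whole kidneys of mouse embryos at E13.5 (embryonic day), 3 lacking both Frizzled receptors (Fz4-/-Fz8-/-, here double-null, arrays M1, M2 and M3) and 3 lacking Fz8 with intact Fz4 (Fz4+/+Fz8-/-, here Fz8-null, arrays C1, C2 and C3). Loss of Fz8 is therefore shared by every sample, no wild-type kidney was analysed here, and the background mixed 3 strains (129S1/Sv, 129X1/SvJ and C57BL/6). The labels call the 3 samples of a genotype biological replicates but do not say whether 1 embryo or several gave the RNA of a sample. The design asks what the loss of Fz4 changes in a kidney that already lacks Fz8.

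Hepatocytes make most plasma proteins and release them into the blood. Their genes are switched on together by a set of liver-enriched transcription factors that includes HNF1, HNF4, FOXA and C/EBP proteins, and several of these genes are also used by the yolk sac. In the embryo the liver is at the same time the main site of red cell formation, so hepatocytes and erythroid precursors lie side by side in it. The embryonic kidney is not known as a main source of most of these proteins, although some, such as apolipoprotein M, are also made by kidney tubule cells.

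The arrays did not fall cleanly into the 2 genotypes over all probe sets. M1 and M2 correlated at 0.986 with each other, while M3 correlated at 0.963 with M1 and at 0.952 with M2, against 0.987 to 0.990 with the Fz8-null arrays. A control probe set for the B1 repeat, a short repeated element of the mouse genome, read 11.83, 12.08 and 10.85 in M1, M2 and M3, against 11.02, 10.67 and 10.73 in C1, C2 and C3. The 18S ribosomal RNA controls were higher in all 3 double-null arrays, at 9.16, 9.64 and 9.25 in M1, M2 and M3 against 8.14, 7.32 and 7.40 in C1, C2 and C3 for the 3′ probe set, and at 9.88, 10.56 and 9.86 against 8.53, 7.59 and 7.84 for the 5′ probe set. The 5′ probe set of the beta-actin control, a sign of RNA integrity, read 11.58, 11.73 and 12.59 in M1, M2 and M3, against 11.91, 12.25 and 12.30 in C1, C2 and C3. The part of these controls in the values below was not tested. Fzd4, the deleted gene, read 5.29, 4.96 and 3.89 in M1, M2 and M3 and between 10.74 and 10.93 in the Fz8-null arrays, so each array matched its label. All 11 measured kidney markers were present above the lower quartile of the probe sets on at least 1 array. Their summed intensity was 8171 to 9701 units in double-null and 10470 to 11092 units in Fz8-null arrays.

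The liver secretory genes lay higher in double-null kidneys as a group. The list was chosen with earlier results of these data known, so the counts below are a description and not an independent test. All 34 measured members had a difference above 0 (double-null minus Fz8-null), where 41.9% of all genes did, and the median over the members was 1.55 on the log2 scale, against -0.061 over all genes. For 23 of the 34 the difference was above 1, that is above a doubling, against 3.45% of all genes. None passed the test over all genes (limma, 0 of 34 at an adjusted p under 0.05, with adjusted p between 0.307 and 0.992; percent called higher over all genes 0.0055). At an unadjusted p under 0.05 limma gave 20 of the 34, against 6.05% of all genes called higher, and ordinary least squares gave 7, against 3.36% of all genes. The limma count of 20 was 30 without M1 (3.76% of all genes), 9 without M2 (3.17%) and 11 without M3 (12.3%). It was 10 without C1 (6.07%) and 9 without C3 (2.17%). The count without C2 is left out because its share of all genes was not computed, and the non-overlap count without C2 is given below. The groups did not overlap for 11 of the 34, all higher, against 6.68% of all genes, and the exact permutation test of each of these 11 reached 0.1, its lowest possible p with 3 arrays against 3. Whole kidneys were measured, so more cells of a type and more RNA per cell cannot be told apart.

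The height of the shift differed greatly between the double-null arrays. Set against the Fz8-null mean, M1 held the median member at 0.19, M2 at 2.06 and M3 at 2.33, while the median of all genes lay between -0.11 and 0.008 in these arrays. M1 read above every Fz8-null array for 13 of 34 members (27.3% of all genes), within the Fz8-null range for 14 and below it for 7. M2 did so for 30 of 34 (28.0% of all genes) and M3 for 33 of 34 (27.0% of all genes). In 28 of the 34 members both M2 and M3 lay above M1 and above every Fz8-null array, a pattern found in 5.3% of all genes. Without M1, 12 members passed (limma adjusted p from 0.0059 to 0.0378, percent called higher over all genes 0.192), namely Afp, Alb, Ambp, Apoa1, Apoa2, Apoh, Fabp1, Fga, Fgg, Hpx, Itih2 and Vtn. Without M3, 6 passed (Afp, Cps1, Fga, Fgb, Itih3 and Tdo2), when 7.4% of all genes were called higher. With M1 as the lone double-null array, assumed to vary like the Fz8-null arrays, Fga alone passed, when 3.03% of all genes were called higher. Weighting the arrays by their fitted spread, which gave M1 the largest weight, called 7 members (Afp, Apoa4, Cps1, Fga, Fgb, Itih3 and Tdo2), when 15.6% of all genes were called higher. Without M1 the groups did not overlap for 30 members (10.3% of all genes), and without M3 for 11 (19.2% of all genes). The count was 16 after setting the arrays to equal medians (8.68% of all genes), and 5 of the 11 members with a mean of at least 6 (3.08% of the genes that passed this minimum).

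**Figure D1:**
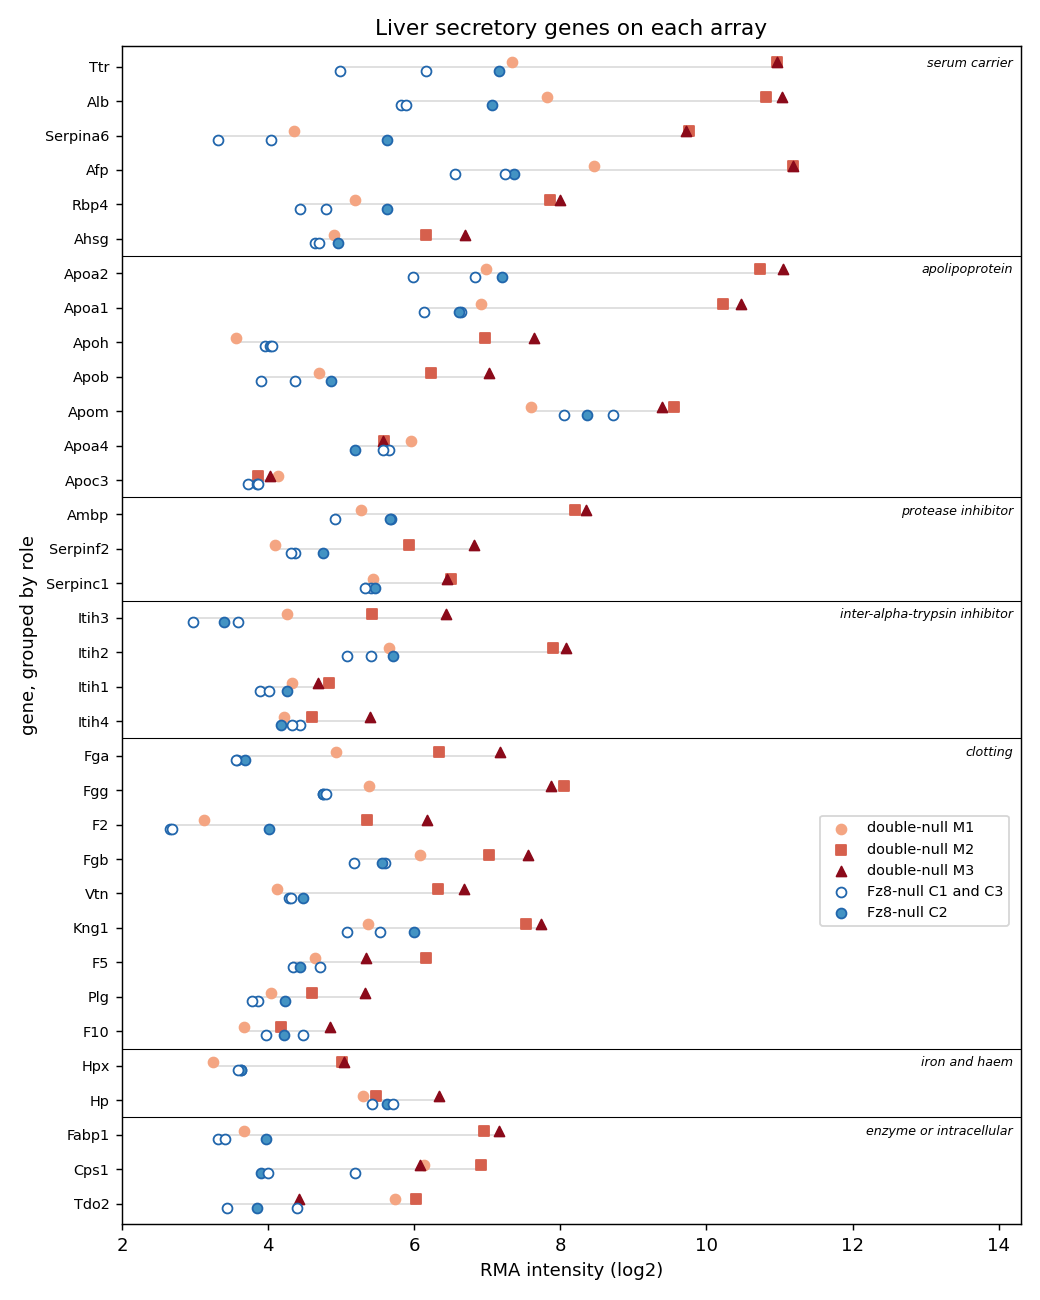
RMA intensity (log2, horizontal axis) of the 34 measured genes on each array, with genes grouped by role and ordered by their difference within a role. Filled red symbols are the double-null arrays M1, M2 and M3, blue circles the Fz8-null arrays with C2 filled, and M2 and M3 lie together on the right for most genes while M1 lies near the Fz8-null arrays.

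Serum carriers held the largest differences, with a median of 3.42 over 6 genes. Alb, which encodes albumin, the main protein of adult plasma, read 7.82, 10.82 and 11.03 in M1, M2 and M3, against 5.82, 7.06 and 5.89 in C1, C2 and C3. All 3 double-null arrays lay above all 3 Fz8-null arrays, and M2 and M3 lay far above M1. The means were 9.89 ± 1.80 in double-null and 6.26 ± 0.70 in Fz8-null kidneys (SD, n = 3 each), a difference of 3.63 (SE 0.86, limma adjusted p = 0.314), or 12.4-fold. Afp, which encodes alpha-fetoprotein, the fetal counterpart of albumin, read 8.46, 11.18 and 11.19 in M1, M2 and M3, against 6.56, 7.37 and 7.23 in C1, C2 and C3. Its groups did not overlap either, and M2 and M3 differed by only 0.0019. The difference was 3.22 (SE 0.73, limma adjusted p = 0.314). Of the other 4 Afp probe sets, 3 stood at 3.73, 3.29 and 0.97, and the dimmest at -0.027.

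The stretches upstream of Alb, Afp and Fga are shown because these genes are textbook targets of the liver-enriched factors and lay among the higher members. Each is the 250 bases before the gene's start in RefSeq (build GRCm38.p6, plus strand, 5′ to 3′), which are chr5:90460620-90460869 for Alb, chr5:90490464-90490713 for Afp and chr3:83025903-83026152 for Fga. Capitals mark matches on either strand to 3 motifs, which do not overlap one another here: GTTAAT, a half-site of HNF1, TGTTTGC, a core of FOXA sites, and TTGCNNAA, a form of the C/EBP site.
Alb: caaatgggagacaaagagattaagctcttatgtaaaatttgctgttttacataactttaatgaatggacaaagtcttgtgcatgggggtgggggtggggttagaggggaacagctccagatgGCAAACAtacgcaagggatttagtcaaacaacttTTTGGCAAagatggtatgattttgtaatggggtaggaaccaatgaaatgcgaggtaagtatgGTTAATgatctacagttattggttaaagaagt
Afp: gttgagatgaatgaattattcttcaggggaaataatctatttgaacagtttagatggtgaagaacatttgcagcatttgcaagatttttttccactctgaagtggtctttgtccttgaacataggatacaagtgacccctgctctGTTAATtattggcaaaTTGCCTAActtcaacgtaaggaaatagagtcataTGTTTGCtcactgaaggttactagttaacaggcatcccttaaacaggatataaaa
Fga: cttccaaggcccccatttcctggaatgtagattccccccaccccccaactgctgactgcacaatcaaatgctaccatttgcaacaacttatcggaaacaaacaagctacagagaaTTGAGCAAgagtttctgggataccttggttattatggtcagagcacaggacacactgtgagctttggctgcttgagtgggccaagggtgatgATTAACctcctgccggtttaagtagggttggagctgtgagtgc
Alb and Afp held all 3 motifs and Fga held the half-site and the C/EBP form. A promoter was listed for 29 of the 37 members. The HNF1 half-site was in 27.6% of these 29, against 7.49% of all genes with a listed promoter, the FOXA core in 31.0% against 4.93%, and the C/EBP form in 41.4% against 10.8%. At least 1 of the 3 was in 18 of the 29 (62.1%, against 20.8% of all genes). The measured members with at least 1 motif had a median difference of 1.83 (16 genes), and those with none 0.88 (11 genes). Those with a motif included Alb, Afp, Apoa1, Apoa2, Apob, Ahsg, Fga, Fgb and Rbp4, which are also in the abundant tier described below. The part of abundance in this gap was not tested. A match is a description of letters and not a measured binding site.

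Ttr, which encodes the thyroid hormone and retinol carrier transthyretin, read 7.33, 10.96 and 10.97 in M1, M2 and M3, against 6.16, 7.16 and 4.98 in C1, C2 and C3. The groups did not overlap, but M1 lay only just above C2. At 3.65 (SE 1.05, limma adjusted p = 0.314) this was the largest difference among the members, and the other 3 Ttr probe sets stood between 2.83 and 3.996. Serpina6, which encodes corticosteroid-binding globulin, read 4.35, 9.76 and 9.72 in M1, M2 and M3, against 3.31, 5.62 and 4.03 in C1, C2 and C3. Here M1 lay inside the Fz8-null range, and M2 and M3 lay more than 5 log2 units above the Fz8-null mean, at 5.44 and 5.398. Rbp4, the plasma retinol carrier, read 5.18, 7.85 and 7.998 in double-null and 4.43, 5.63 and 4.79 in Fz8-null arrays, with M1 again below C2. Ahsg, which encodes fetuin-A, an inhibitor of mineral deposition, read 4.90, 6.16 and 6.69 in double-null and 4.64, 4.95 and 4.70 in Fz8-null arrays, the smallest shift of the carriers at 1.15 (SE 0.43).

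The 7 apolipoproteins spread more widely, from 0.20 to 2.92. Apoa1, the main protein of high-density lipoprotein, read 6.91, 10.23 and 10.48 in M1, M2 and M3, against 6.64, 6.62 and 6.13 in C1, C2 and C3. M1 was just above the Fz8-null arrays and M2 and M3 more than 3 log2 units above them. The difference was 2.74 (SE 0.89, limma adjusted p = 0.314), and 3 further Apoa1 probe sets stood between 2.43 and 2.67. Apoa2, the second protein of that particle, read 6.98, 10.73 and 11.05 in double-null and 6.83, 7.20 and 5.98 in Fz8-null arrays, with M1 inside the Fz8-null range. Apoh, which encodes the phospholipid-binding protein beta-2 glycoprotein I, read 3.55, 6.97 and 7.63 in M1, M2 and M3, against 3.96, 4.02 and 4.05 in C1, C2 and C3, with M1 below every Fz8-null array. Its other probe set stood at 0.10. Apob, the structural protein of low-density lipoprotein, read 4.69, 6.23 and 7.03 in double-null and 3.90, 4.86 and 4.36 in Fz8-null arrays. A dimmer Apob probe set had another order, with 5.19, 5.21 and 3.14 in M1, M2 and M3 and 3.12 to 3.46 in the Fz8-null arrays, so the probe sets of this gene disagreed on M1 and M3.

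Apom, which carries sphingosine-1-phosphate, read 7.60, 9.56 and 9.39 in M1, M2 and M3, against 8.72, 8.36 and 8.04 in C1, C2 and C3. M1 was the lowest of the 6 arrays and M2 and M3 the highest, so the mean difference of 0.48 (SE 0.51, limma adjusted p = 0.638) stands for no single array. Apoa4, an apolipoprotein of intestine and yolk sac as well as liver, and Apoc3, an inhibitor of lipoprotein lipase, showed little of the shift in M2 and M3. Apoa4 read 5.96, 5.59 and 5.57 in double-null and 5.65, 5.19 and 5.56 in Fz8-null arrays, and M1 was its highest array. Apoc3 stood at 0.20 (SE 0.13), with all arrays between 3.73 and 4.14, near the lower quartile of the probe sets.

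Among protease inhibitors, Ambp, which encodes the precursor of alpha-1-microglobulin and bikunin, read 5.27, 8.20 and 8.35 in M1, M2 and M3, against 5.68, 5.67 and 4.92 in C1, C2 and C3. M1 lay inside the Fz8-null range and the difference was 1.85 (SE 0.79, limma adjusted p = 0.328). Serpinf2, the plasmin inhibitor alpha-2-antiplasmin, stood at 1.14 (SE 0.63) with M1 below every Fz8-null array. Serpinc1, which encodes antithrombin, read 5.44, 6.51 and 6.45 in double-null and 5.404, 5.45 and 5.33 in Fz8-null arrays, a shift of about 1 log2 unit in M2 and M3. The heavy chains of the inter-alpha-trypsin inhibitors, some of which bikunin joins to form a matrix-stabilising complex, lay at 0.56 for Itih1, 1.81 for Itih2, 2.06 for Itih3 and 0.43 for Itih4. Itih3 read 4.26, 5.43 and 6.44 in M1, M2 and M3, against 2.97, 3.39 and 3.59 in C1, C2 and C3, without overlap.

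The clotting genes included the 3 fibrinogen chains, which are made together and assembled in the hepatocyte. Fga read 4.93, 6.34 and 7.17 in M1, M2 and M3, against 3.58, 3.68 and 3.55 in C1, C2 and C3. Fgb read 6.08, 7.02 and 7.56 in double-null and 5.603, 5.56 and 5.17 in Fz8-null arrays, and Fgg 5.38, 8.05 and 7.88 in double-null and 4.75, 4.75 and 4.795 in Fz8-null arrays. All 3 chains were without overlap, M1 included, with differences of 2.54 (SE 0.51) for Fga, 1.44 (SE 0.36) for Fgb and 2.34 (SE 0.67) for Fgg (limma adjusted p = 0.313, 0.314 and 0.314). M1 stood 1.33, 0.64 and 0.61 above the Fz8-null mean for Fga, Fgb and Fgg, whereas for none of the other 6 measured clotting genes did M1 lie above every Fz8-null array on the probe set used. The dimmer probe sets of F5 and Kng1 did place M1 above them, at 3.93 against 3.09 to 3.13 for F5 and at 3.105 against 2.89 to 2.98 for Kng1.

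F2, which encodes prothrombin, read 3.11, 5.35 and 6.17 in M1, M2 and M3, against 2.65, 4.01 and 2.68 in C1, C2 and C3, so that C2 exceeded M1. Vtn, the adhesion protein vitronectin, stood at 1.35 (SE 0.62), Kng1, the bradykinin precursor with a close copy, Kng2, that its probes may also match, at 1.35 (SE 0.62) and Plg, plasminogen, at 0.70 (SE 0.32). F5, the cofactor of factor X, read 4.64, 6.16 and 5.33 in double-null and 4.34, 4.44 and 4.71 in Fz8-null arrays, with M2 the highest. F10, factor X itself, was at 0.0075 (SE 0.31), with its 6 arrays between 3.66 and 4.84. In the iron and haem group, Hpx, the haem scavenger hemopexin, read 3.24, 5.005 and 5.03 in double-null and 3.63, 3.63 and 3.58 in Fz8-null arrays, with M1 below every Fz8-null array. Hp, which encodes the haemoglobin scavenger haptoglobin, stood at 0.12 (SE 0.28), with M3 at 6.34 its one array above the Fz8-null range of 5.42 to 5.71.

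The 3 intracellular members did not share one pattern. Fabp1, the liver fatty acid carrier, read 3.67, 6.95 and 7.16 in M1, M2 and M3, against 3.32, 3.96 and 3.40 in C1, C2 and C3, which follows M2 and M3. Cps1, the entry enzyme of the urea cycle, read 6.13, 6.91 and 6.08 in double-null and 5.19, 3.89 and 4.002 in Fz8-null arrays, without overlap and with M1 as high as M3. It had the smallest p of all members (difference 2.01, SE 0.39, limma adjusted p = 0.307). Tdo2, which opens the breakdown of tryptophan, read 5.73, 6.03 and 4.42 in double-null and 4.39, 3.85 and 3.44 in Fz8-null arrays, so M1 and M2 stood apart and M3 lay just above C1. The other 2 Tdo2 probe sets disagreed in size. One read 4.38, 4.17 and 2.33 in M1, M2 and M3, against 2.16 to 2.56 in the Fz8-null arrays. The other, with a difference of 0.21, read 3.91, 4.46 and 2.93 in M1, M2 and M3, against 3.78, 3.71 and 3.17 in C1, C2 and C3, so that M3 lay below every Fz8-null array. For Cps1, for Tdo2 and for a dimmer probe set each of Apob, F5, F10 and, narrowly, Apoa4, the arrays M1 and M2 were the highest. The same 2 arrays were the highest for the B1 repeat control, whose part in these values was not tested.

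Whether the shift scaled with the abundance of the transcript in fetal liver was described by sorting members into tiers from textbook knowledge. Intensities of different probe sets cannot be set against each other. The tiers were set with some earlier results of these data known, so their medians are a description and not an independent test. The abundant tier (Alb, Afp, Ttr, Rbp4, Ahsg, Apoa1, Apoa2, Apob and the fibrinogen chains) had a median difference of 2.54 over 11 measured genes. The intermediate tier stood at 1.35 over 14 genes, and the tier of scarcer or later transcripts (F5, F10, Itih1, Serpinf2, Serpina6, Cps1, Tdo2, Hp and Plg) at 0.88 over 9. All 11 abundant genes exceeded 1, against 8 of 14 intermediate and 4 of 9 scarce genes. The abundant median lay above the scarce one in each double-null array, by 0.53 in M1, 1.84 in M2 and 2.73 in M3. The tiers overlapped widely: Ahsg in the abundant tier stood at 1.15 and Serpina6 in the scarce tier at 3.62. Dim probe sets understate a fold change, and the Fz8-null mean lay below the lower quartile of all probe sets, averaged over C1, C2 and C3 (4.05), for 1 abundant, 6 intermediate and 3 scarce genes, whose part in the tier medians was not tested.

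**Figure D2:**
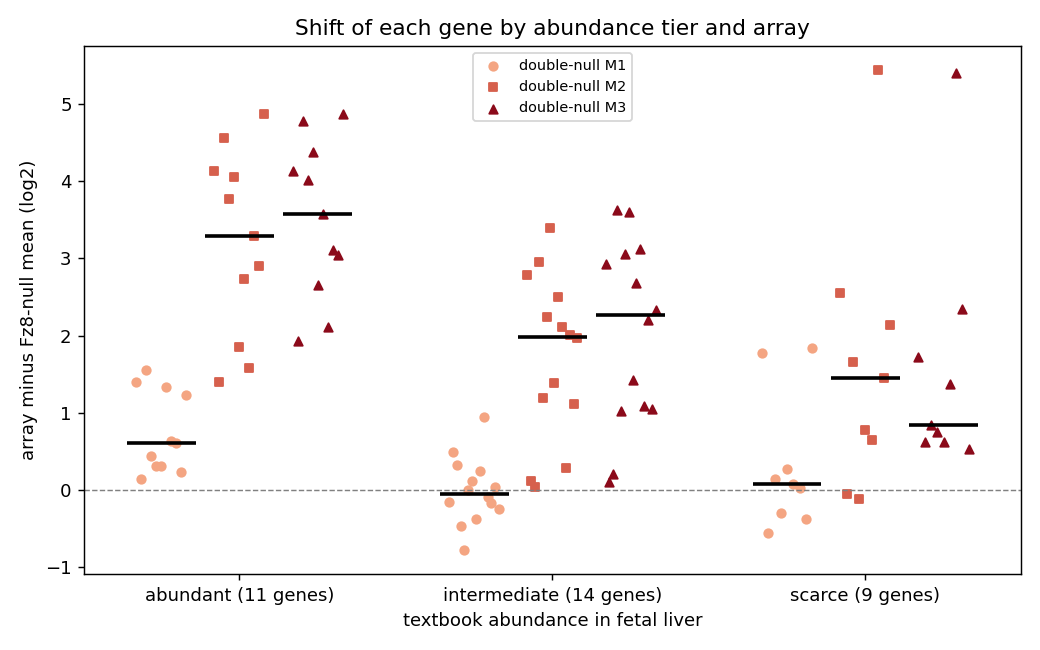
Deviation of each member from its Fz8-null mean (log2, vertical axis) in M1, M2 and M3, by textbook abundance tier. Points are genes and black bars are medians. From the abundant to the intermediate to the scarce tier, the medians run from 0.61 to -0.045 to 0.085 in M1. They run from 3.29 to 1.98 to 1.45 in M2 and from 3.57 to 2.27 to 0.84 in M3.

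M2 and M3 were close to each other for the strongest members, although they were the least alike pair of double-null arrays over all probe sets. M3 minus M2 had a median of 0.21 and lay within 0.5 of 0 for 19 of 34 members, among them Alb at 0.21, Ttr at 0.0045 and Serpina6 at -0.039. M3 exceeded M2 for 25 of 34. The widest gaps were Itih3 at 1.01 and Serpinf2 at 0.89 in favour of M3, and Tdo2 at -1.60, Cps1 at -0.83 and F5 at -0.82 in favour of M2.

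The same members also varied within the Fz8-null group. C2 was the highest Fz8-null array for 18 of 34 members (32.5% of all genes), and C2 minus the mean of C1 and C3 had a median of 0.20, against 0.014 over all genes. It stood at 1.95 for Serpina6, 1.58 for Ttr, 1.34 for F2, 1.20 for Alb and 1.02 for Rbp4, and at -0.70 for Cps1. Across the 34 members, C2 minus the mean of C1 and C3 correlated with the mean of M2 and M3 minus M1 (Pearson r = 0.716, Spearman rho = 0.683), against a Pearson r of 0.220 over all genes. The 2 measures share no array, every gene was read on the same 6 arrays, and genes are not independent replicates. Without C2, the groups did not overlap for 21 members (all higher, 8.87% of all genes), against 11 with all arrays.

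**Figure D3:**
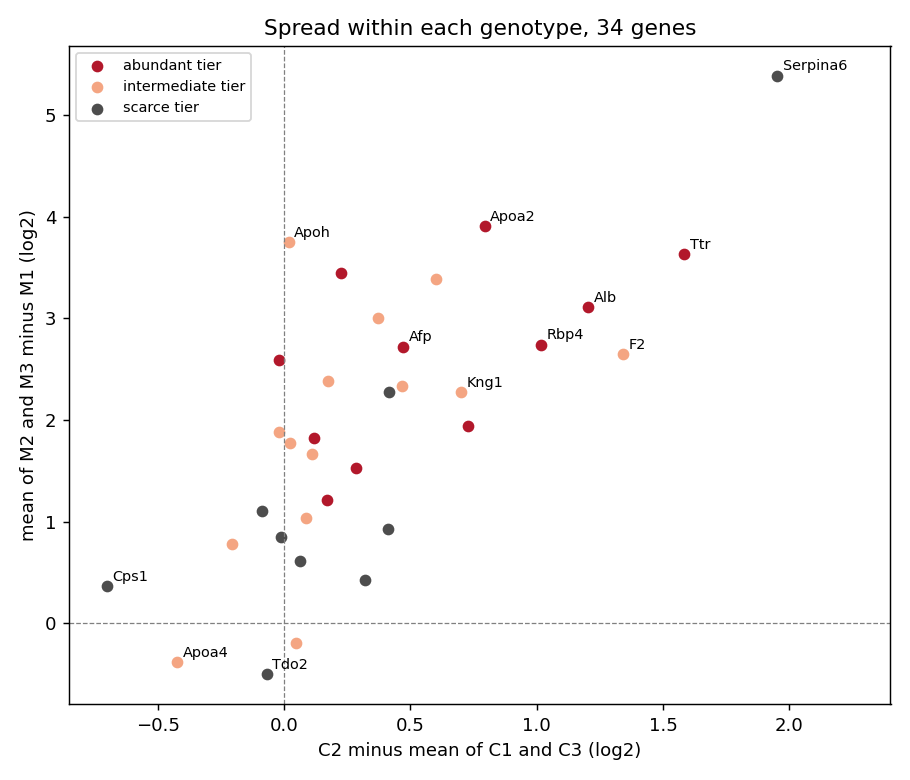
For each of the 34 members, the mean of M2 and M3 minus M1 (vertical axis, log2) against C2 minus the mean of C1 and C3 (horizontal axis, log2), coloured by abundance tier. Serpina6, Ttr and Alb lie at the upper right, and Cps1, Apoa4 and Tdo2 lie at the lower left.

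Other genes known from liver and its neighbours were set beside the members. The erythroid list moved in the same arrays: 11 of its 12 measured genes lay higher, against 41.9% of all genes, with a median difference of 1.31. None passed (limma, 0 of 12 at an adjusted p under 0.05). At an unadjusted p under 0.05 limma gave 2 higher, against 6.05% of all genes. The array medians of the list were -0.52 for M1, 1.88 for M2 and 2.16 for M3. Its summed intensity was 10183 to 26419 units in double-null and 12624 to 14270 units in Fz8-null arrays. Hbb-y, an embryonic globin gene whose probes may also match related globins, was its brightest at 12.96, 13.60 and 13.36 in M1, M2 and M3, against 13.19, 12.94 and 12.99 in C1, C2 and C3. The part of erythroid cells in the liver signal was not tested.

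Macrophage genes had medians of -0.24, 0.72 and 0.65 in M1, M2 and M3, with 8 of 10 higher, and a summed intensity of 1657 to 3875 units in double-null and 1425 to 1714 units in Fz8-null arrays. Further secreted liver proteins were weaker than the members, with 34 of 42 measured genes higher, against 41.9% of all genes. Their median was 0.33 and 5 lay above 1, against 3.45% of all genes. Of these 42, 14 lay below the lower quartile on every array. None passed (limma, 0 of 42 at an adjusted p under 0.05). At an unadjusted p under 0.05 limma gave 12 higher and 0 lower, against 6.05% and 9.23% of all genes. The groups did not overlap for 10 higher genes, against 6.68% of all genes, and for 1 lower gene. Differences in this list ran from -0.38 to 2.47, and its brightest genes, Selenop, Pros1 and Serping1, stood at 0.33, -0.056 and 0.13. Hepatocyte regulators lay at a median of 0.29, with 11 of 14 higher (41.9% of all genes) and 3 above 1 (3.45% of all genes). Limma gave 4 of them higher and 0 lower at an unadjusted p under 0.05, against 6.05% and 9.23% of all genes, and 0 passed. For 5 the groups did not overlap, all higher, against 6.68% of all genes. The array medians of the regulators were 0.36, 0.26 and 0.21 in M1, M2 and M3. Hnf4a, the brightest of them and a regulator of hepatocytes and kidney tubule, read 9.10, 7.83 and 8.54 in M1, M2 and M3, against 7.497, 7.44 and 7.53 in C1, C2 and C3. M1 was the highest array for Hnf4a, unlike for most members. Enzymes, receptors and other non-secreted hepatocyte genes stood at 0.19, with 14 of 18 higher (41.9% of all genes) and 1 above 1 (3.45% of all genes). Among these 18, limma gave 4 higher and 2 lower at an unadjusted p under 0.05, against 6.05% and 9.23% of all genes. The groups did not overlap for 2 higher genes, against 6.68% of all genes, and for 1 lower gene.

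Lists of other tissues and cell types, including the sinusoid and stellate cells of the liver itself, gave small medians. They were 0.053 for the genes of yolk sac endoderm that are not members (4 of 7 higher), 0.19 for proximal tubule (7 of 9) and 0.17 for liver sinusoid and stellate cells (4 of 8). For pancreas the median was -0.019 (3 of 7), for intestine 0.13 (5 of 7) and for adrenal cortex 0.094 (4 of 7). The full yolk sac list also holds the members Afp, Ttr, Apob and Apoa4. Its median was 0.24, with 8 of 11 higher and 4 above 1. Over all genes, 41.9% lay higher and 3.45% above 1. Of the 42 distinct genes in these 6 lists, members left out, 0 passed over all genes (limma, adjusted p under 0.05). At an unadjusted p under 0.05 limma gave 4 higher and 4 lower, against 6.05% and 9.23% of all genes. Kidney markers had differences below 0 in double-null kidneys for 11 of 11, where 41.9% of all genes lay above 0. The median of these markers was -0.27, against -0.061 over all genes, and 0 passed (limma, 4 lower at an unadjusted p under 0.05, against 9.23% of all genes called lower). Their array medians were -0.17 for M1, -0.42 for M2 and -0.24 for M3.

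**Figure D4:**
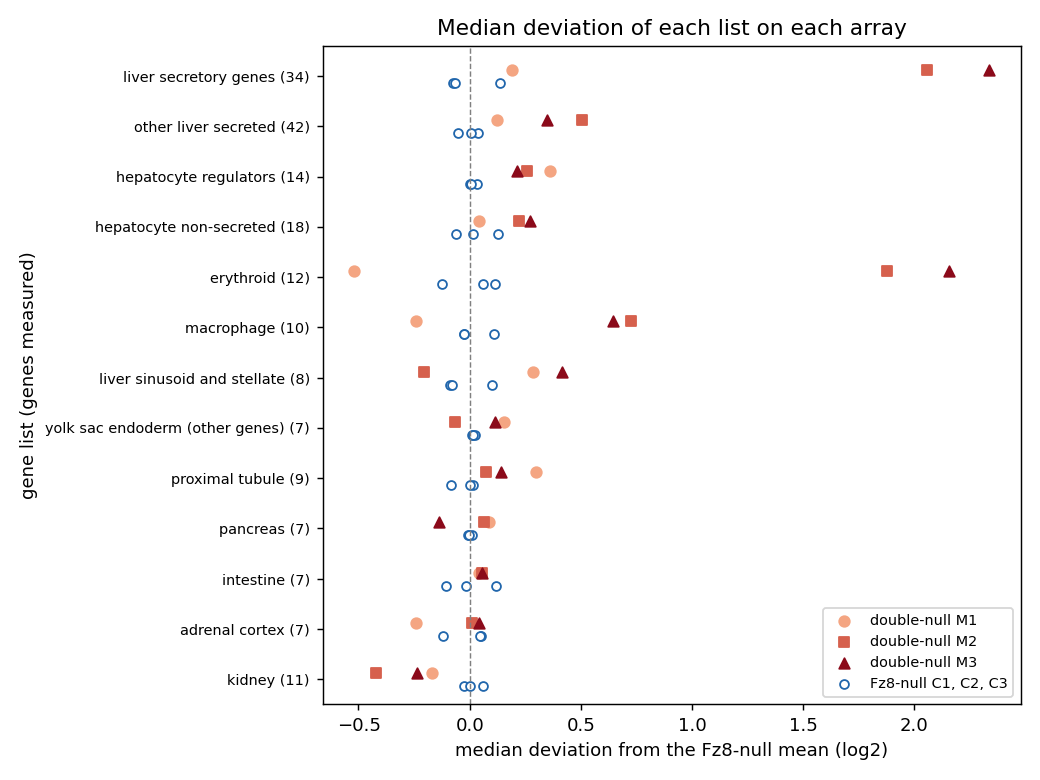
Median deviation from the Fz8-null mean (log2, horizontal axis) of each gene list on each array, with the number of genes measured in brackets. Red symbols are M1, M2 and M3 and open blue circles the Fz8-null arrays. The liver secretory and erythroid lists stand near 2 in M2 and M3, the macrophage list reaches 0.72, and the other lists stay within about 0.5 of 0.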

How the data were processed

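Labelled cRNA from 100 ng of total RNA was hybridised to Affymetrix MOE430.2 arrays, per the labels. The authors deposited 1 log2 intensity per probe set and array, normalised between arrays with RMA per the submitters' processing notes (version not given in the sources used here), and these values were used as deposited. After 64 control probe sets were set aside, 45037 remained, of which 34945 carried 1 gene, 932 several and 9160 none in the platform annotation. Each gene was represented by its brightest single-gene probe set. The genotypes were compared across all 18193 genes in R 4.3.3 with the limma package, version 3.58.1 (linear model with moderated variances, two-sided, Benjamini-Hochberg over all genes, threshold 0.05), after a test on simulated data. Differences are double-null minus Fz8-null, ± gives the SD over 3 arrays, and SE the moderated standard error. Every measured member is named, and from other lists at most the 3 brightest genes. Summed intensities are on the linear scale. Arrays carry no read depth, so their number limits the precision. The members, lists and tiers were chosen with earlier results of these data known. The alternatives tried covered filtering, scaling, the spread model, probe sets, the replicate number as a block and each array left out.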

Additional observations from a re-analysis of the deposited data

How the results depend on the processing

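All alternatives were planned except M1 as the lone double-null array and the tier gap without Serpina6 (1.75), which were chosen after seeing the data. With each array left out in turn, 0 to 12 members passed and 11 to 30 did not overlap (10.3% of all genes without M1, which gave the 30, and 19.2% without M3, which gave the 11). The lone M1 gave 1 passing member, a median of 0.19 and a tier gap (abundant minus scarce median) of 0.53. It turned Ambp to -0.15, Apoh to -0.46, Apom to -0.78, F10 to -0.56, Hp to -0.29, Hpx to -0.37, Itih4 to -0.090, Kng1 to -0.17, Serpinf2 to -0.38 and Vtn to -0.24. Array weights, which rate M1 above M2 and M3, gave 7 passing members (15.6% of all genes called higher) and a median of 0.31 and turned Apom to -0.40, F10 to -0.51, Hp to -0.28, Hpx to -0.11 and Serpinf2 to -0.15. A minimum mean of 6 left 11 members with a median of 2.74, 5 without overlap (3.08% of the genes left), and a tier gap of -0.55, where Serpina6 was the whole scarce tier. F10 was -0.16 with quantile normalization and ran from -0.30 to 0.29 with 1 array left out, and Hp ran from -0.20 to 0.32. With the replicate block 0 members passed. Deviations from the group means correlated at 0.17, -0.14 and 0.090 between arrays with one number, so the numbers were not taken as pairs. Equal array medians (median over all genes -0.0061) left 16 members without overlap (8.68% of all genes). The other 24 members kept their sign in every fit run. The number of arrays and dim probe sets limit all of these values.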
